A study of Homo sapiens with 12 samples.

Results

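CTGF, CYR61 and 8 further genes of the YAP/TEAD pathway were followed in human skin and gingival keratinocytes under oxidative stress. The members were the rows of the deposited count table named CTGF, CYR61, THBS1, ANKRD1, AMOTL2, LATS2, AJUBA, AXL, YAP1 and WWTR1, which are 10 of its 58735 genes. CTGF was selected on its values in this experiment, a large rise in TIGK and a small one in HaCaT, so its response to H2O2 is given below as a description without a test. The other members were chosen as known targets or components of the pathway, with earlier results of these data known, and all 10 passed the filter on low counts. Of the lines used, HaCaT stems from skin and TIGK from gingiva, and each consists of immortalized human keratinocytes. Both were kept in DermaLife K Keratinocyte Complete Medium, and RNA was sequenced from untreated TIGK, from TIGK exposed to 5 mM H2O2 for 3 h, from untreated HaCaT and from HaCaT exposed to 5 mM H2O2 for 3 h. Each of these 4 groups held 3 libraries. Each tissue was represented by a single cell line, so line and tissue cannot be told apart.

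YAP (gene YAP1) and TAZ (gene WWTR1) are coactivators without a DNA-binding domain of their own that drive transcription through the TEAD factors. In the Hippo cascade the MST kinases activate the LATS kinases, which phosphorylate YAP and TAZ and hold them in the cytoplasm. Cell spreading, actin tension and wounding let them enter the nucleus, where CTGF, CYR61 and ANKRD1 are their most widely used target genes. In stratified epithelia they maintain basal progenitor cells and take part in wound repair. Their activity is set largely by phosphorylation and localization, which RNA counts do not measure.

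Among the 9 members other than CTGF, CYR61, ANKRD1 and AMOTL2 were upregulated in TIGK after H2O2, and CYR61 was upregulated in HaCaT. AXL, THBS1 and WWTR1 were downregulated in both lines, while LATS2, AJUBA and YAP1 did not pass the test in either. CTGF, chosen for its large rise, changed 30.5-fold in TIGK, so its first place among the members was set by that choice. The next were ANKRD1 at 5.09-fold, from only 5, 17 and 11 raw counts in untreated TIGK, and CYR61 at 4.77-fold. CYR61 and AMOTL2 had a higher log2 fold change in TIGK than in HaCaT, and AXL fell further in TIGK. Genes were called at an adjusted p under 0.01 with edgeR over 16618 genes tested.

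The promoters of the members are shown because the letters that TEAD factors are known to read, GGAATG, recur in them. They were taken from RefSeq (GRCh38.p14), as the 250 bases before each listed start of a gene and the 50 after it. Some genes have more than 1 listed start. Of the members, 9 had at least 1 such window. CYR61 had no window, so the motif counts do not cover it. Matches on either strand are in capitals. CTGF and ANKRD1 are printed whole up to the start, written 5′ to 3′ along the gene, at chr6:131951373-131951622 and chr10:90921088-90921337, both on the minus strand.
CTGF: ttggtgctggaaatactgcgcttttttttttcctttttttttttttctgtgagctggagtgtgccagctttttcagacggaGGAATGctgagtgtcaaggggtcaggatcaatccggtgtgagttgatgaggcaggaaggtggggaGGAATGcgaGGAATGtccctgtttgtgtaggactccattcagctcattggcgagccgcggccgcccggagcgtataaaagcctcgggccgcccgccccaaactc
ANKRD1: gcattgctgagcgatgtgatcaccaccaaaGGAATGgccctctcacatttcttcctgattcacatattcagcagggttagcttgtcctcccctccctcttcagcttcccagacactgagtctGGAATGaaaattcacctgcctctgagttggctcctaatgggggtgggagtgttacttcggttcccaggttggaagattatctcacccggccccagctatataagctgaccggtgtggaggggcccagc

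For 3 members with a single match in a window, 40 bases around it are given, to set genes whose counts moved differently beside each other. These lie at chr3:134374494-134374533 (AMOTL2, minus strand), chr15:39581016-39581055 (THBS1, plus strand) and chr19:41226526-41226565 (AXL, plus strand). In AMOTL2 and AXL the match is CATTCC, the same motif on the other strand. In both genes it lies before a further RefSeq start within the gene, not before the outermost one.
AMOTL2: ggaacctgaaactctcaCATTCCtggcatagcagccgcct
THBS1: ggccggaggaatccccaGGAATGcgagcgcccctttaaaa
AXL: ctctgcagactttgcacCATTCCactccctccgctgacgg

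CTGF held 3 matches, starting 169, 104 and 95 bases before the start, and ANKRD1 held 2, at 220 and 128 bases. THBS1, AMOTL2, LATS2, AJUBA, AXL and YAP1 each held 1 match in a window, and WWTR1 held 0 in its 2 windows. AMOTL2, AJUBA and AXL had 2 windows each. Their match lay in the window around a start within the gene, and the window at the outermost start held 0. In all, 8 of 13 member windows (61.5%) contained the motif, against 14.0% of the 35116 RefSeq windows of the same length. The 13 windows come from 9 members, so they are not independent. Most members were chosen as known targets of the TEAD pathway, so a high share could be foreseen and is no test. At least 2 matches were present in 1.37% of all windows and at least 3 in 0.128%. The AP-1 letters TGANTCA were found once among the members, 195 bases before the start of ANKRD1, and in 7.71% of all windows. The CRE letters TGACGTCA and the CArG box of SRF had 0 matches in the member windows, and were present in 1.85% and 1.29% of all windows. The motif was present in windows of genes that were upregulated, of genes that were downregulated and of genes that did not pass the test, and no binding of any factor was measured here.

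**Figure D1:**
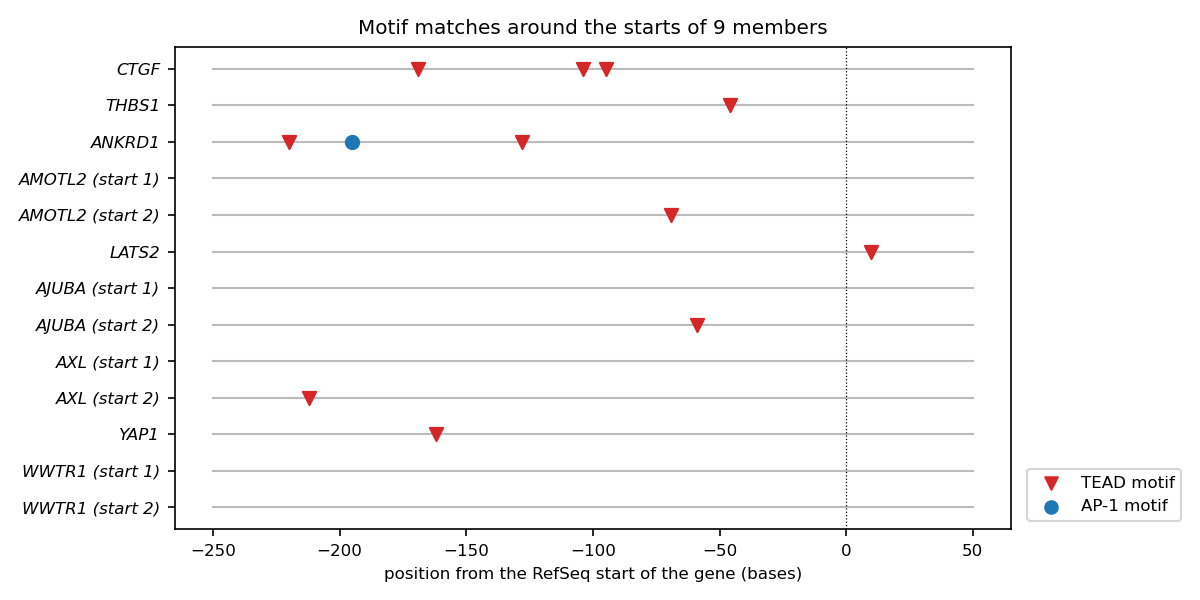
Positions of TEAD (triangles) and AP-1 (circle) motif matches in the RefSeq windows of 9 members, in bases from the RefSeq start of each window. Each grey line is 1 window, and the matches of AMOTL2, AJUBA and AXL are at a start within the gene. CTGF has 3 TEAD matches, ANKRD1 has 2 and an AP-1 match, and WWTR1 has 0.

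The libraries held between 30426401 and 49034244 counts. All 7 keratinocyte markers (KRT5, KRT14, TP63, PERP, DSP, CDH1 and EPCAM) were present in every group, with a summed level of 960727 to 1337280 normalized counts. Normalized counts are counts scaled to a common library size. Of 7 fibroblast markers, COL1A2 was at 0 in every library, and the summed level was 800 to 847 in untreated TIGK, 926 to 938 in treated TIGK, 319 to 420.0 in untreated HaCaT and 311 to 401 in treated HaCaT. The 4 endothelial markers summed to at most 59.7, the 4 leukocyte markers to at most 123 and the 4 melanocyte markers to at most 93.8 normalized counts in any library. The part of these traces in the results was not tested. In bulk RNA, a lower level in each cell cannot be told apart from fewer cells that express the gene.

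CTGF (ENSG00000118523, chr6:131948176-131951373), a secreted matricellular protein of the CCN family that acts on adhesion and matrix production, lay near the middle of all genes in untreated cells of both lines. In TIGK it stood at 363, 320.4 and 365 normalized counts untreated and at 11010.3, 10149 and 10842 after H2O2. In HaCaT it stood at 291, 316 and 358 untreated and at 742, 721 and 751 after H2O2. All treated libraries lay above all untreated ones in each line, and the treated TIGK libraries stood far above every other library. The log2 fold change was 4.93 (SE 0.0787) in TIGK and 1.20 (SE 0.0784) in HaCaT, a difference of 3.73 on the log2 scale. Among the 16618 genes CTGF had the second highest log2 fold change in TIGK and was at rank 335 in HaCaT. Per length, it moved from rank 7402 to rank 264 in TIGK and from rank 7697 to rank 4899 in HaCaT. Untreated, the log2 fold change of CTGF, HaCaT over TIGK, was −0.12. The untreated libraries entered the choice of CTGF, so no test is given for it.

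CYR61 (ENSG00000142871, chr1:85580761-85583962), the other CCN family gene among the members and likewise a secreted integrin ligand, was upregulated in both lines. TIGK held 5518, 4752 and 4845 normalized counts untreated and 24609.5, 23182 and 24328 after H2O2. HaCaT held 1521, 1622 and 1772 untreated and 5630.3, 5209 and 5059 after H2O2. In each line the groups did not overlap, and treated HaCaT reached the range of untreated TIGK. The log2 fold change was 2.25 ± 0.07 (SE) in TIGK (adjusted p = 1.28e-14) and 1.69 ± 0.07 in HaCaT (adjusted p = 1.44e-12). CYR61 rose more in TIGK, by 0.56 on the log2 scale (95% interval 0.36 to 0.76, adjusted p = 0.000736). Expressed as folds, CYR61 rose 4.77-fold in TIGK and 3.24-fold in HaCaT, whereas CTGF changed 30.5-fold and 2.30-fold. Thus in HaCaT CYR61 had the larger fold change of the pair, and in TIGK CTGF had. Untreated HaCaT held less CYR61 than untreated TIGK (log2 fold change −1.62, adjusted p = 1.43e-13).

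THBS1 (ENSG00000137801, chr15:39581079-39599466) encodes thrombospondin-1, a matrix glycoprotein that activates latent TGF-beta, and was the most abundant member per length in all 4 groups. It fell in both lines, in TIGK from 150259, 139444 and 142923 to 108273, 106509 and 104609 normalized counts. In HaCaT it fell from 294404, 303291 and 343056 to 242489, 228206 and 202983. The groups did not overlap in either line. The log2 fold changes were −0.44 (adjusted p = 4.0e-05) and −0.48 (adjusted p = 1.07e-05), and their difference was 0.04 (95% interval −0.15 to 0.24, adjusted p = 0.822). THBS1 moved against CTGF and CYR61 in both lines. A sense intronic transcript, AC037198.1, lies within THBS1 and reached a mean of 724 normalized counts in its highest group, which is small beside THBS1.

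ANKRD1 (ENSG00000148677, chr10:90912096-90921276), a nuclear and sarcomeric ankyrin repeat protein used as a YAP reporter gene, was the least abundant member per length in all 4 groups. TIGK held 5.09, 17.6 and 11.5 normalized counts untreated and 62.7, 54.3 and 58.6 after H2O2, from raw counts of 5, 17 and 11 and of 54, 57 and 74. HaCaT held 16.0, 15.5 and 21.7 untreated and 34.5, 23.3 and 48.0 after H2O2. The groups did not overlap in either line, but the untreated TIGK and treated HaCaT libraries were widely spread. ANKRD1 rose in TIGK by 2.35 ± 0.42 (SE) on the log2 scale (5.09-fold, 95% interval 2.78 to 9.32, adjusted p = 0.000237). In HaCaT its change, 0.99 ± 0.40, was not called (adjusted p = 0.0504). The difference of the responses, 1.36, had a 95% interval of 0.14 to 2.58 and an adjusted p of 0.145, so a difference between the lines was not detectable at this depth.

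AMOTL2 (ENSG00000114019, chr3:134355874-134375479), an angiomotin-like scaffold that binds YAP and is itself induced by it, was upregulated in TIGK. It went from 5253, 4618 and 5136 to 9336, 9384 and 9336 normalized counts there, and from 8799, 8521 and 9769 to 9916, 10903 and 9003 in HaCaT. The treated TIGK libraries lay far above the untreated ones and within the range of untreated HaCaT, where the treated and untreated libraries overlapped. The log2 fold change was 0.90 (1.87-fold, adjusted p = 1.4e-08) in TIGK and 0.14 (adjusted p = 0.111) in HaCaT. The response differed between the lines by 0.76 (95% interval 0.56 to 0.97, adjusted p = 4.95e-05). Untreated, AMOTL2 was 1.81-fold higher in HaCaT (adjusted p = 2.46e-09), and after H2O2 the difference of 0.09 on the log2 scale no longer passed the test (95% interval −0.06 to 0.23, adjusted p = 0.27).

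LATS2 (ENSG00000150457, chr13:20973032-21061547), the Hippo kinase that phosphorylates YAP and is induced by it as feedback, did not pass the test in either line. In TIGK it lay at 617, 627 and 626 untreated and at 680.0, 655 and 664 after H2O2. In HaCaT it lay at 1229.5, 1352 and 1330.1 untreated and at 1536, 1469 and 1395 after H2O2. All treated libraries lay above the untreated ones in both lines, with log2 fold changes of 0.09 (95% interval −0.06 to 0.25, adjusted p = 0.336) and 0.17 (0.03 to 0.32, adjusted p = 0.0505). LATS2 was 2.09-fold higher in untreated HaCaT than in untreated TIGK (adjusted p = 1.34e-10).

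AJUBA (ENSG00000129474, chr14:22971174-22982642), a LIM protein that binds LATS kinases and restrains them, held 9555, 9855 and 10244 normalized counts in untreated TIGK and 11607, 10950.2 and 10714 in treated TIGK. HaCaT held 14227, 14839 and 15053 untreated and 14019, 14393 and 12160.1 treated. The TIGK groups did not overlap and the HaCaT groups did. The log2 fold changes were 0.17 in TIGK (adjusted p = 0.0421) and −0.12 in HaCaT (adjusted p = 0.114), and their difference was 0.29 (95% interval 0.10 to 0.47, adjusted p = 0.0373). This member sat at the limit: without treated HaCaT replicate 3 the TIGK value was called (adjusted p = 0.00867), and without treated HaCaT replicate 1 the difference was (0.38, adjusted p = 0.00729), as it was with DESeq2 (adjusted p = 0.00943).

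AXL (ENSG00000167601, chr19:41219203-41261766), a receptor tyrosine kinase for the ligand GAS6 and a reported YAP target, was downregulated in both lines. TIGK went from 2089, 1795 and 2128.5 to 1006, 1016 and 1009.6 normalized counts. HaCaT went from 3069.6, 3212 and 3349 to 2478, 2559 and 2139. The groups did not overlap in either line, and the 3 treated TIGK libraries were nearly equal (1010.4 ± 4.78, SD). The log2 fold change was −0.99 in TIGK (adjusted p = 1.5e-08) and −0.42 in HaCaT (adjusted p = 0.000149), and AXL fell further in TIGK (difference −0.56 on the log2 scale, 95% interval −0.79 to −0.34, adjusted p = 0.00194). Without treated TIGK replicate 2 or 3 this difference was −0.50 in each case and was no longer called (adjusted p = 0.0135 and 0.0143).

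The coactivators themselves were split. YAP1 (ENSG00000137693, chr11:102110461-102233423) lay at 12572, 12459 and 13791 in untreated TIGK and at 12495, 12762 and 12245 after H2O2, and in HaCaT at 8939, 9231 and 9419 untreated and at 9024, 8597 and 7526 after H2O2. The groups overlapped in both lines. The log2 fold changes of YAP1 were −0.05 in TIGK (95% interval −0.18 to 0.08, adjusted p = 0.571) and −0.13 in HaCaT (−0.27 to −0.0018, adjusted p = 0.0897). Without treated HaCaT replicate 1 the HaCaT value was −0.22 and was called (adjusted p = 0.00674).

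WWTR1 (ENSG00000018408, chr3:149517235-149736714), which encodes TAZ, fell in TIGK from 2032, 1784 and 1690.5 to 1294, 1275 and 1205 normalized counts. In HaCaT it fell from 6478, 6594 and 6751 to 3719, 3585 and 3491. All treated libraries lay below all untreated ones in each line, and every HaCaT library lay above every TIGK library. The log2 fold change of WWTR1 was −0.55 in TIGK (adjusted p = 3.72e-06) and −0.88 in HaCaT (adjusted p = 4.12e-09). The difference of 0.33 (95% interval 0.14 to 0.52) had an adjusted p of 0.0222, and was called without untreated TIGK replicate 1 (0.41, adjusted p = 0.00438) or treated HaCaT replicate 1 (0.42, adjusted p = 0.00677), and with DESeq2 (adjusted p = 0.00475). The antisense genes WWTR1-AS1, beside WWTR1, and AC011510.1, beside AXL, reached means of at most 10.1 and 10.2 normalized counts, and whether reads were counted by strand is not given in the sources used here.

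**Figure D2:**
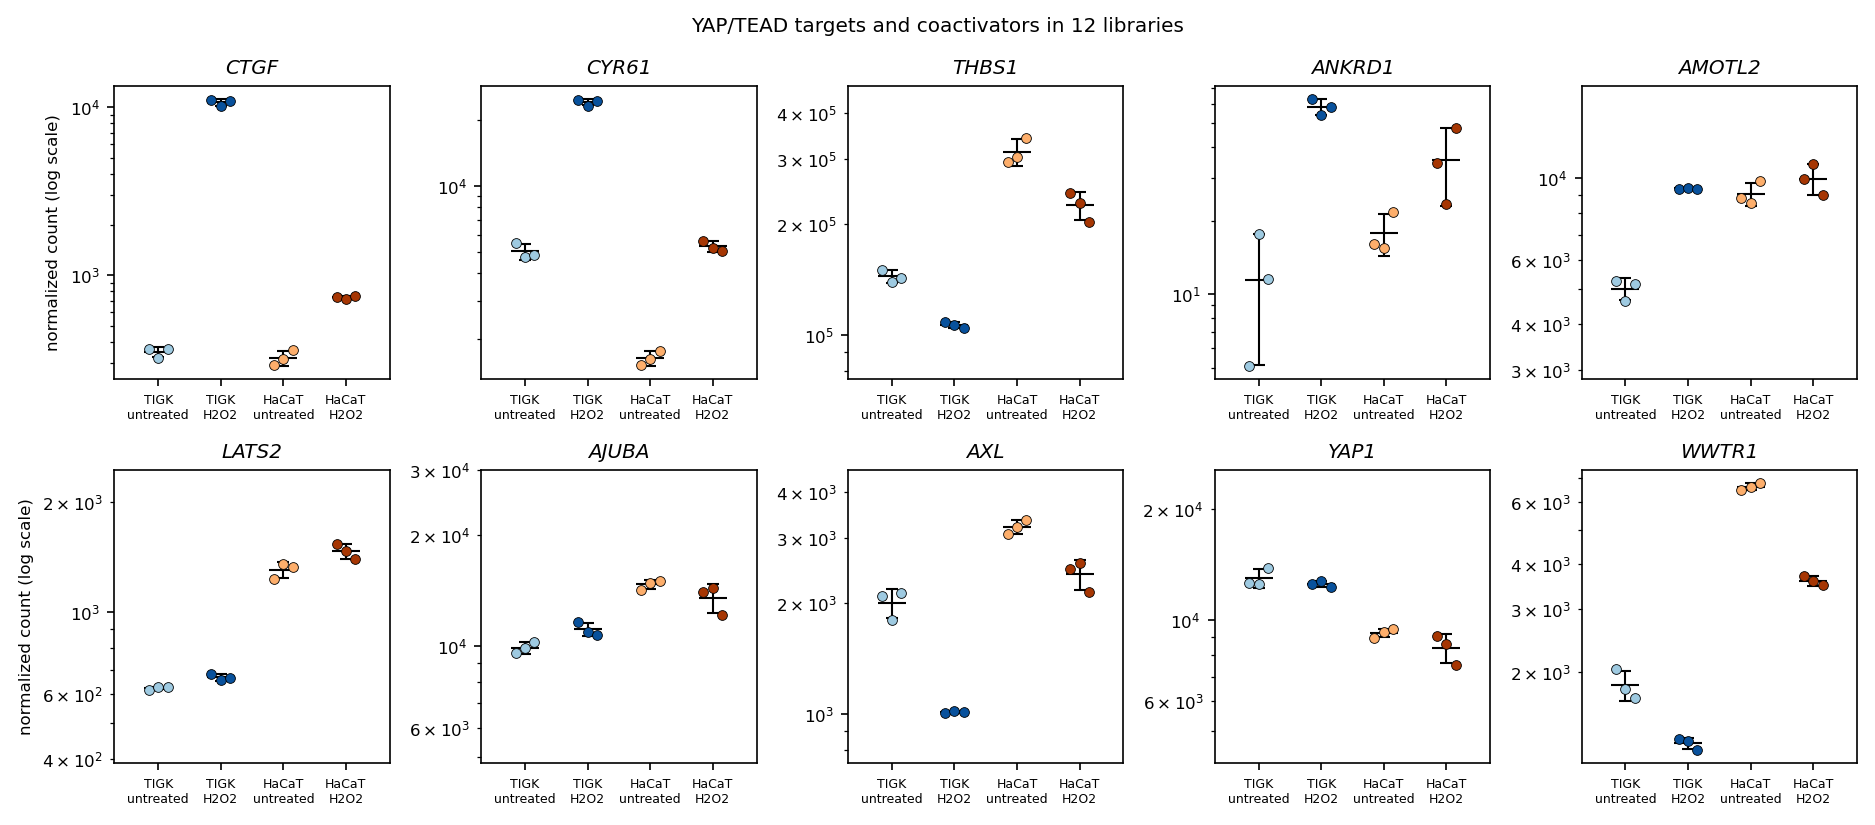
Normalized counts of the 10 members in 12 libraries (points), with the mean and SD of each group (n = 3; log scales that differ between panels). CTGF stands at 10149 to 11010.3 in treated TIGK and at or below 751 elsewhere, whereas AXL and WWTR1 are lower after H2O2 in both lines.

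Counted over the 9 members other than CTGF, 3 were called higher and 3 lower in TIGK, where 10.2% of all genes tested were called higher and 12.9% lower. In HaCaT 1 was called higher and 3 lower, where 18.9% and 15.2% of all genes were. For the difference of the responses, TIGK minus HaCaT, 2 were called higher (CYR61 and AMOTL2) and 1 lower (AXL), where 2.32% and 2.98% of all genes were. Leaving out both coactivators, the 7 other targets gave 3 higher and 2 lower in TIGK, and 1 higher and 2 lower in HaCaT. The median log2 fold change over the 9 was 0.09 in TIGK and −0.12 in HaCaT, beside 0.01 and 0.04 over all genes tested. Treated and untreated libraries did not overlap for 8 of the 9 in TIGK and for 6 of the 9 in HaCaT, beside 51.1% and 53.8% of all genes tested. The upregulated members were CYR61, ANKRD1 and AMOTL2 in TIGK and CYR61 in HaCaT. The shift was not shared by THBS1 or AXL, which moved the other way in both lines. CYR61 (2455 bases) and ANKRD1 (1979) are shorter than THBS1 (9158) and AXL (5154), while AMOTL2 (5984) is longer than AXL. The part of gene length in these changes was not tested.

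**Figure D3:**
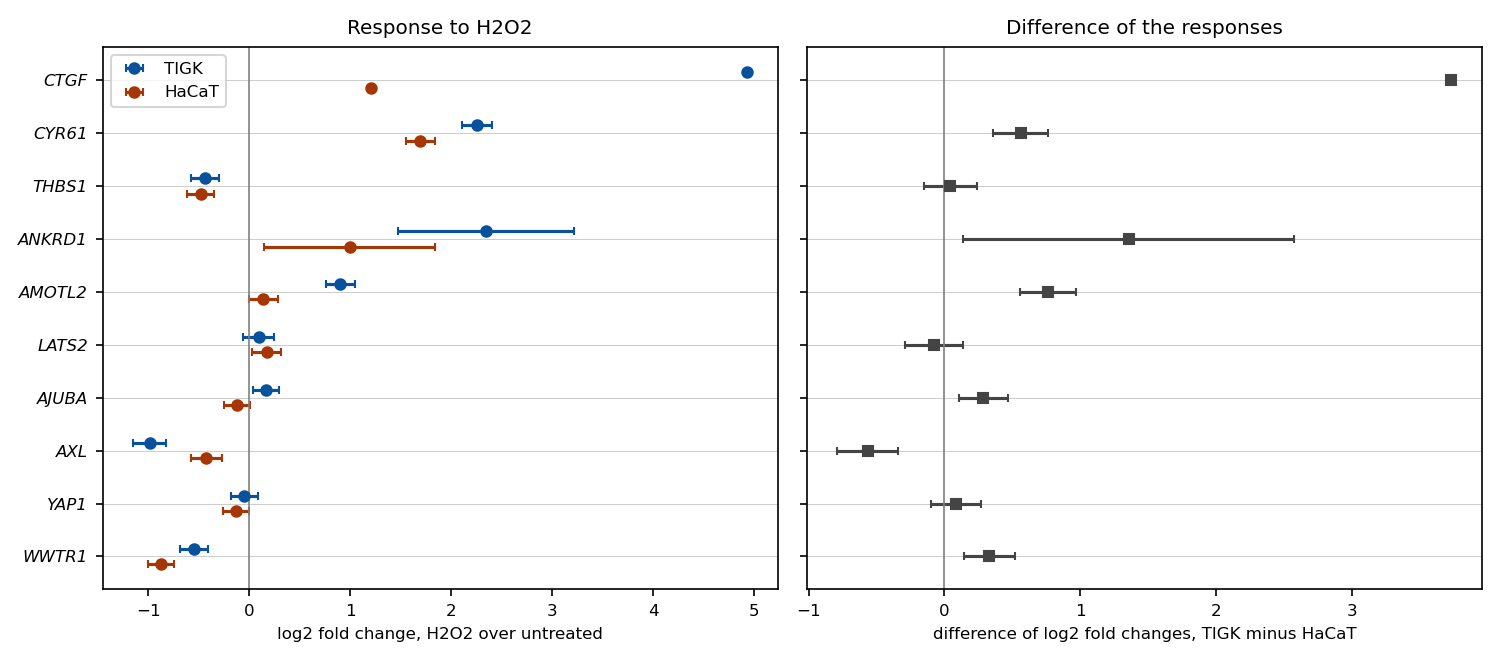
Log2 fold changes of the 10 members after H2O2 in TIGK and HaCaT (left) and their difference, TIGK minus HaCaT (right), with 95% intervals from the edgeR fit for the 9 members other than CTGF (n = 3 libraries a group). CTGF, drawn without an interval, is at 4.93 and 1.20; the interval of ANKRD1 is the widest.

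Between the untreated lines, 6 of the 9 members were higher in HaCaT (WWTR1, THBS1, LATS2, AMOTL2, AXL and AJUBA) and 2 were lower (CYR61 and YAP1), where 29.1% of all genes were called higher and 30.8% lower. WWTR1 had the largest difference among them, 3.60-fold (log2 fold change 1.85, adjusted p = 6.67e-15), and THBS1 was 2.17-fold higher (adjusted p = 1.57e-11). YAP1 was lower in HaCaT by 0.49 on the log2 scale (difference −0.49, adjusted p = 1.02e-06), so the lines differed in opposite directions for the YAP and TAZ genes. After H2O2, 5 were higher in HaCaT and 2 lower, where 30.2% and 29.8% of all genes were. AXL was then 2.37-fold higher in HaCaT (adjusted p = 3.93e-11) and CYR61 had a log2 fold change of −2.18 (adjusted p = 1.55e-15). AJUBA, higher by 0.29 (adjusted p = 0.000396), was no longer called without treated TIGK replicate 3 (0.21, adjusted p = 0.0124). The fibroblast markers DCN, PDGFRB and COL1A1 were called lower in HaCaT in both comparisons, and their part in the member values was not tested. DCN and PDGFRB had 0 to 8 and 0 to 6 raw counts in HaCaT. They passed the filter only through TIGK, so their direction was set by the filter and is no test. These comparisons use the same libraries as the responses to H2O2 and are not independent of them.

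The order of the levels per length changed in TIGK with treatment. In CPM per kilobase (counts scaled to library size and gene length), untreated TIGK held THBS1 at 434, YAP1 at 56.6 and CYR61 at 56.5, of which the last pair overlapped, then AJUBA at 45.5, AMOTL2 at 23.0, AXL at 10.7, WWTR1 at 6.01, CTGF at 4.11, LATS2 at 3.08 and ANKRD1 at 0.159. After H2O2 the order was THBS1 at 320.2, CYR61 at 269.7, CTGF at 126, YAP1 at 54.7, AJUBA at 51.1, AMOTL2 at 43.0, AXL at 5.40, WWTR1 at 4.12, LATS2 at 3.29 and ANKRD1 at 0.814, with no overlap between neighbours. CTGF thus passed from the eighth place to the third. In HaCaT it went from 3.79 to 8.69 and from the ninth place to the eighth, while CYR61 went from 18.4 to 59.4 and from the sixth place to the third, where its libraries overlapped those of AJUBA at 62.3. In untreated HaCaT, AMOTL2 at 41.6 and YAP1 at 40.2 overlapped, as did CYR61 and AXL at 17.2, and in treated HaCaT AXL at 12.8 overlapped WWTR1 at 11.8.

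Beyond the members, 16 further conserved YAP/TAZ targets, listed from general knowledge, were counted. In TIGK 2 of the 16 were called higher, GADD45A (1.295), a growth arrest gene induced by many stresses, and FJX1 (0.28), and 5 lower, NT5E (−1.02), DOCK5 (−0.95), FOXF2 (−0.63), PTPN14 (−0.54) and CRIM1 (−0.35), of which CRIM1 is named only to complete the count. In HaCaT GADD45A (0.84) and FJX1 (0.28) were again called higher and 9 were lower, led by DOCK5 (−1.08), a guanine nucleotide exchange factor for Rac, and PTPN14 (−0.92), a phosphatase that binds YAP. Of all genes tested, 10.2% were called higher and 12.9% lower in TIGK, and 18.9% and 15.2% in HaCaT. The median log2 fold change of the 16 was −0.15 in TIGK and −0.46 in HaCaT. FJX1 was a weak call: without treated TIGK replicate 1 its adjusted p was 0.0365 in TIGK, and without treated HaCaT replicate 2 it was 0.0284 in HaCaT. Its call was lost under 3 of 19 alternatives in TIGK and under 9 of 19 in HaCaT.

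Over all genes tested, 2.32% were called higher and 2.98% lower for the difference of the responses, TIGK minus HaCaT. Of the 16 conserved targets, 4 had a higher log2 fold change in TIGK than in HaCaT. They were, with the difference, IGFBP3 (0.96, adjusted p = 1.59e-07), a carrier of insulin-like growth factors, F3 (0.60, adjusted p = 0.000134), which encodes tissue factor, GADD45A (0.46, adjusted p = 0.00434) and MYOF (0.32, adjusted p = 0.00919). IGFBP3 was lower after H2O2 in HaCaT (−0.91), where it went from 6385, 6414 and 7179 to 3664, 3519 and 3411 normalized counts, and had a log2 fold change of 0.04 in TIGK (adjusted p = 0.576). F3 and MYOF were likewise lower in HaCaT, each at −0.46, and did not pass the test in TIGK (0.14 and −0.14, adjusted p = 0.078 and 0.043), so that GADD45A was the only 1 of the 4 to rise more in TIGK. FOXF2 (difference −0.77, adjusted p = 0.0022) and NT5E (difference −0.45, adjusted p = 0.00701) had a log2 fold change that was lower in TIGK than in HaCaT. NT5E fell in both lines and further in TIGK (−1.02 against −0.57), and FOXF2, lower in TIGK, had 0.14 in HaCaT (adjusted p = 0.286). Of these calls, those of IGFBP3 and F3 were made under every alternative run. That of NT5E was lost under 12 of 18 alternatives (adjusted p up to 0.0706, without treated TIGK replicate 3). That of MYOF was lost under 9 (up to 0.0294, without untreated TIGK replicate 1). GADD45A lost its call under 3 (up to 0.0155, without untreated HaCaT replicate 1) and FOXF2 under 2 (up to 0.0126, without treated TIGK replicate 3).

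A further 10 genes known as YAP/TEAD targets in epithelial cells gave 4 higher and 3 lower in TIGK, and 3 higher and 3 lower in HaCaT, against the all-gene shares of 10.2% and 12.9% in TIGK and 18.9% and 15.2% in HaCaT. The genes named from here to the end of the paragraph were chosen after their values were seen. EDN1, which encodes the vasoactive peptide endothelin-1, went from 349.9, 302 and 238 to 1569, 1531 and 1663 normalized counts in TIGK, a log2 fold change of 2.42 against 0.97 in HaCaT, and passed the test in both. SNAI2, the zinc finger repressor SLUG, rose in TIGK by 1.67 and had a log2 fold change of 0.21 in HaCaT (adjusted p = 0.0262). MYC rose in TIGK by 0.76 and had −0.14 in HaCaT (adjusted p = 0.0263). AREG, an EGF receptor ligand, rose in both, by 0.58 and 0.72, and BIRC5, which encodes survivin, rose in HaCaT by 0.42. INHBA, an activin subunit, was lower in both, at −0.27 in TIGK and −1.20 in HaCaT. Without treated TIGK replicate 3 the TIGK value of INHBA was −0.21 and no longer called (adjusted p = 0.0551). That call was lost under 5 of 19 alternatives. ARHGAP29, a GTPase-activating protein, was lower in both, at −0.75 and −0.78, as was CCND1, which encodes cyclin D1, at −0.27 and −0.38. Without treated TIGK replicate 2 CCND1 was at −0.24 in TIGK and no longer called (adjusted p = 0.0134). SNAI2, EDN1, INHBA and MYC had a log2 fold change that was higher in TIGK than in HaCaT by 0.90 to 1.45, INHBA having fallen less in TIGK. For this difference 2.32% of all genes tested were called higher.

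**Figure D4:**
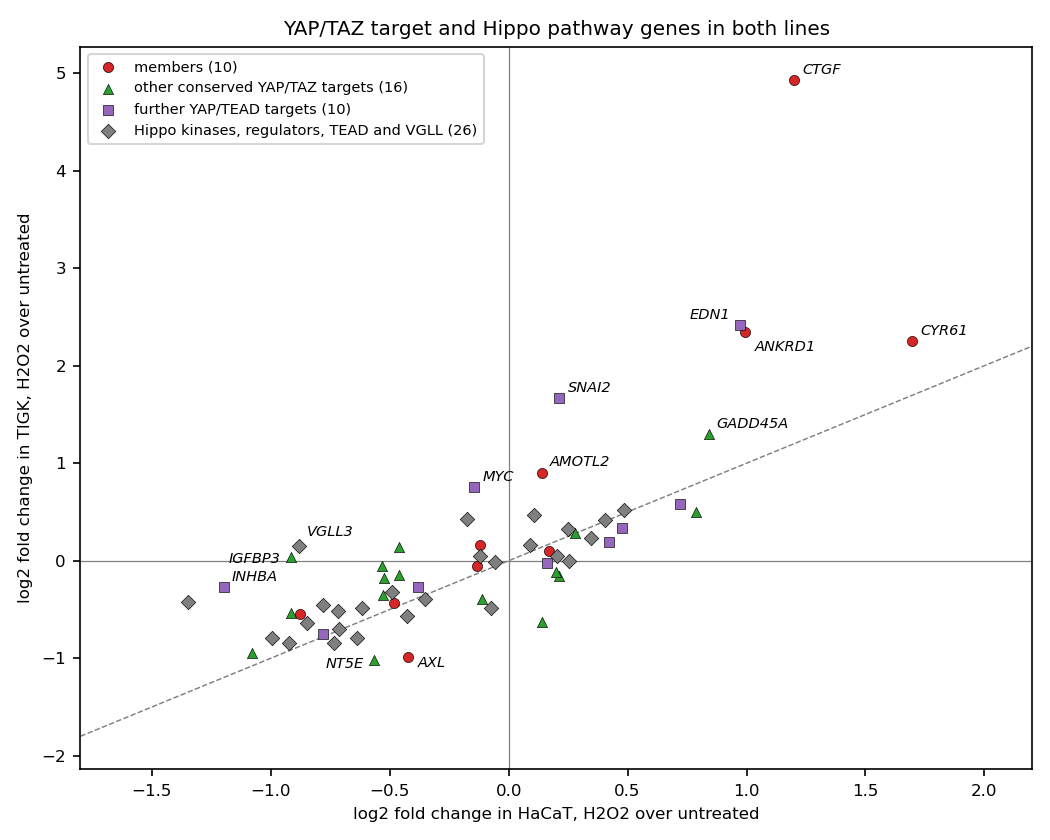
Log2 fold change after H2O2 in TIGK (vertical) against HaCaT (horizontal) for the 10 members, 16 other conserved YAP/TAZ targets, 10 further targets and 26 Hippo pathway genes; the dashed line marks equal changes. CTGF lies far above the line at 4.93 against 1.20, while 13 of the 26 Hippo genes were called lower in each line. Of all genes tested, 12.9% were called lower in TIGK and 15.2% in HaCaT.

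Among 26 other genes of the Hippo pathway, 13 were downregulated in TIGK and 13 in HaCaT, of which 12 were shared. The share of all genes called lower in both lines was not counted, so this overlap has no background beside it. Called higher were 3 in TIGK (STK3, VGLL4 and TAOK3) and 4 in HaCaT (the same genes and TEAD4). Of all genes tested, 10.2% were called higher in TIGK and 18.9% in HaCaT. Over the alternatives the HaCaT count of higher genes ran from 1 to 6. STK3 was called higher in HaCaT under all 19, so TEAD4, VGLL4 and TAOK3 were not called where the count was 1. In TIGK the lower genes were led by WTIP (−0.85), a LIM protein related to AJUBA, and TEAD1 (−0.85), the DNA-binding partner of YAP, and in HaCaT by FAT1 (−0.996), an atypical cadherin upstream of the kinases, and WTIP (−0.92). TEAD1 also fell in HaCaT (−0.74), from 11530.5, 11483 and 12350.2 to 7573, 7282 and 6377 normalized counts. Its paralogs TEAD2, TEAD3 and TEAD4 are named here outside the naming rule. TEAD4 was called higher in HaCaT, from a mean of 1382 to 1646 normalized counts, and did not pass the test in TIGK. TEAD2 and TEAD3 did not pass the test in either line, though TEAD2 in HaCaT was called higher without treated HaCaT replicate 3 (0.43, adjusted p = 0.00538). STK3, which encodes the kinase MST2, rose in both lines, by 0.52 and 0.48. VGLL4, a TEAD cofactor that competes with YAP, was called higher in both, by 0.42 and 0.40, and had an adjusted p of 0.0218 in TIGK without untreated TIGK replicate 3 and of 0.0546 in HaCaT without treated HaCaT replicate 1. Its call was lost under 7 of 19 alternatives in TIGK and under 10 of 19 in HaCaT. The difference of the responses was called for 1 of the 26, VGLL3 (1.03, adjusted p = 1.62e-05), another TEAD cofactor, which fell in HaCaT (−0.88) and had 0.15 in TIGK (adjusted p = 0.116). For this difference 2.32% of all genes tested were called higher and 2.98% lower. The 13 genes called lower in each line are 50% of the list, beside 12.9% of all genes tested in TIGK and 15.2% in HaCaT. The list's median gene length, 9246 bases, is above the 4447 of all genes, and of the 2122 genes at least that long, 27.7% were called lower in TIGK and 37.5% in HaCaT; the part of gene length in the count was not tested.

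Of the other 4 CCN family genes, only NOV passed the filter, and it did not pass the test in either line. Its log2 fold changes were −0.12 in TIGK (adjusted p = 0.671) and −0.05 in HaCaT (adjusted p = 0.863). WISP1, WISP2 and WISP3 were each below 10 normalized counts in every library, too low for a statement on their response. CTGF and CYR61 are also known targets of SRF with its MRTF coactivators, and CTGF of TGF-beta signalling, so these lists were counted beside the YAP targets. Of 11 SRF and MRTF targets tested, 1 was called higher (SRF, 0.34) and 2 lower (VCL and FLNA) in TIGK, and 1 higher (TPM1, 0.28) and 3 lower (FHL2, FLNA and VCL) in HaCaT. Of 5 direct TGF-beta targets, SKIL was called higher in TIGK (0.35) and TGFBI in HaCaT (0.19), and PMEPA1 and LTBP2 were lower in both. The shares of all genes called higher and lower were 10.2% and 12.9% in TIGK and 18.9% and 15.2% in HaCaT. The HaCaT call of TPM1 was lost under 8 of 19 alternatives, among them leaving out untreated TIGK replicate 2, treated TIGK replicate 2 or 3, untreated HaCaT replicate 2 or 3, or treated HaCaT replicate 3 (log2 fold change 0.20 to 0.27). That of TGFBI was lost under 9, among them leaving out untreated TIGK replicate 2, treated TIGK replicate 2 or 3, untreated HaCaT replicate 1 or 2, or treated HaCaT replicate 1 (0.15 to 0.19). VCL in HaCaT (−0.21) had an adjusted p of 0.0232 without untreated HaCaT replicate 1, and its call was lost under 3 of 19 alternatives. These genes were chosen by their calls.

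The genes whose level followed CTGF most closely were found by Pearson's r over the 12 libraries on log2 CPM (counts scaled to library size), among 12607 genes that reached 100 normalized counts in their highest group. They were SOWAHC (r = 0.996), PTGER4 (r = 0.982), EDN1 (r = 0.982), PIM1 (r = 0.978) and DUSP5 (r = 0.970). PTGER4, the prostaglandin E2 receptor EP4, went from a mean of 223 to 1231 normalized counts in TIGK and from 150.4 to 276 in HaCaT, and DUSP5, a phosphatase of ERK, from 3700.0 to 30360.1 in TIGK and from 3024 to 3346 in HaCaT. Among the members, CYR61 was at rank 46 (r = 0.916), followed by AMOTL2 (r = 0.417) and YAP1 (r = 0.376). AXL had r = −0.903, THBS1 r = −0.718, WWTR1 r = −0.689, LATS2 r = −0.404 and AJUBA r = −0.266. ANKRD1 did not reach the level for this ranking. The 12 points fall into 4 groups and share their normalization, and the 3 treated TIGK libraries stand apart from the rest in CTGF, so r here describes the group means more than the libraries.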

How the data were processed

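Raw counts of reads on 58735 genes of GRCh38 in 12 libraries were deposited by the authors. The study's methods name Hisat2 2.0.5, StringTie 1.3.3b and featureCounts 1.5.0-p3, while the labels also name Hisat2 2.0.0 and another StringTie version. The last digit of the agent's formula in the labels runs with the replicate number, and H2O2 was read throughout. Strand, multimapping and annotation release are not given in the sources used here. The authors also deposited DESeq2 fold changes and p-values, which were not used. The 16618 genes whose raw counts averaged 10 or more were tested with edgeR 4.0.16 (quasi-likelihood F test, TMM factors of 0.962 to 1.04, R 4.3.3) in 1 fit with a mean per group, and adjusted by Benjamini-Hochberg over all of them. Library totals were 30426401 to 49034244. Replicates differed by more than counting noise (chi-square per degree of freedom 4.45 to 28.2), so the spread between replicates limits precision. Nothing says that libraries came from separate cultures, so p-values measure the spread between these libraries. Members, lists and named genes were chosen with earlier results of these data known. The named genes were the members, listed genes called in the difference of the responses or most changed among those called, and the 5 most like CTGF; other genes, named mostly to complete a small count, were chosen after their values were seen. The fit was tested on simulated counts. Alternatives included DESeq2 1.42.0, 2 other scalings, no filter, another limit, a replicate block and leaving out each library. RefSeq promoters were matched by symbol or synonym for 9 of 10 members, all but CYR61. Replicate numbers were not taken as pairs. 1 gene was left out of the further targets and is not reported here. Figures were drawn with matplotlib 3.10.9.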

Additional observations from a re-analysis of the deposited data

Results flagged for a closer look

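The response to H2O2 differed between the lines, by the test of the difference itself (TIGK minus HaCaT, edgeR over all genes tested), for 3 members. The differences of log2 fold changes were 0.56 for CYR61 (adjusted p = 0.000736), 0.76 for AMOTL2 (adjusted p = 4.95e-05) and −0.56 for AXL (adjusted p = 0.00194). Of all genes tested, 2.32% were called higher and 2.98% lower for this difference.

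Among the other conserved YAP/TAZ targets, the differences were 0.96 for IGFBP3, 0.60 for F3, 0.46 for GADD45A, 0.32 for MYOF, −0.77 for FOXF2 and −0.45 for NT5E. The call of NT5E was lost under 12 of 18 alternatives, that of MYOF under 9, that of GADD45A under 3 and that of FOXF2 under 2. Among the further targets, they were 1.45 for SNAI2 (adjusted p = 5.1e-08), 1.44 for EDN1 (adjusted p = 4.01e-05), 0.93 for INHBA (adjusted p = 4.19e-06) and 0.90 for MYC (adjusted p = 1.44e-07).

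Of the Hippo genes, VGLL3 had a difference of 1.03. Of the SRF and MRTF targets, FHL2 had 0.58 (adjusted p = 0.00226) and VCL −0.58 (adjusted p = 6.88e-05). Of the TGF-beta targets, SKIL had 0.55 (adjusted p = 0.0011).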

How the results depend on the processing

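Of 865 comparisons of a member value with its value under 19 alternatives, 845 kept direction and side of the limit, 3 lost a call, 13 gained one and 4 changed sign. The sign changes were in the difference of the responses, for THBS1 (−0.0244 without untreated HaCaT replicate 3 and −0.0242 without treated HaCaT replicate 3, −0.0244 to 0.164 over the libraries left out, 0.04 with all) and LATS2 (0.000689 without treated TIGK replicate 2 and 0.0191 without treated HaCaT replicate 1, −0.112 to 0.0191 over the libraries left out, −0.08 with all), none of which passed the test; the cause was not tested. Of the 9 members other than CTGF, 3 were called for the difference of the responses, and 5 with DESeq2, with edgeR without a filter and at a limit of 0.05, as AJUBA and WWTR1 were added; leaving out 1 library gave 2 to 5. CTGF's difference was 3.65 to 3.83 over the alternatives (3.83 without treated TIGK replicate 2). Over all genes, 3850 were called in TIGK (5998 at a limit of 0.05), and 881 for the difference (1426 with DESeq2, 2019 at 0.05, and 536 to 1092 without 1 library, with 536 without treated TIGK replicate 2). Without a filter 769 were higher and 519 lower for the difference, against 385 and 496. Of the 16 other conserved targets 6 were called for the difference, and 3 to 9 without 1 library (3 without untreated TIGK replicate 2 or untreated HaCaT replicate 1). Of the Hippo genes 1 was called, 2 without a filter, and 1 to 2 without 1 library (2 without treated HaCaT replicate 1). SRF in HaCaT, at 0.03 and not called, was at −0.0160 with upper quartile scaling, at −0.0113 on the compared groups alone and at −0.0403 to 0.0918 without 1 library. DESeq2, both other scalings and the fit without a filter moved the median of all genes by less than 0.1. The fit on the compared groups alone cannot be made for the difference. Libraries with the same replicate number showed no shared deviation over all genes (18 correlations of deviations, −0.121 to 0.0257). Pairing in a part of the genes was not tested. With a replicate block 3 of the 16 conserved targets were called for the difference and 3239 genes in TIGK. Depth limits ANKRD1, at 5 to 74 raw counts.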
